A study of Homo sapiens with 45 samples.

Results

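EMX1, EMX2, VAX1 and VAX2 are homeobox genes of the forebrain and eye, and their chromatin contacts were read here from a capture Hi-C experiment on poised enhancers. A contact was taken as theirs when it joined 2 fragments of 1 chromosome (a cis pair) and either fragment lay within 1000 bp of an annotated end of the gene. This gave 90 of the 152688 cis pairs in the data: 7 for EMX1, 26 for EMX2, 62 for VAX1 and 0 for VAX2, with 5 pairs shared by EMX2 and VAX1. The genes were chosen by the scores of contacts between EMX2 and VAX1 in these same profiles, so those contacts are given as a description, with no test. A pair entered the data only if it reached the call score in at least 1 profile. A pair below that score in 1 profile is therefore at or above it in another.

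HNES1 cells, a human embryonic stem cell line, were taken on day 5 of their change from naive to primed pluripotency, in medium with the tankyrase inhibitor XAV939. From the day before that change began they received DMSO as control, UNC6852 at 2.5 µM, a bifunctional molecule (PROTAC) that directs the EED subunit of Polycomb repressive complex 2 to degradation, or UNC1999 at 1 µM, which inhibits the catalytic subunits EZH1 and EZH2. Each condition had 15 libraries from 3 biological replicates, all pooled by the authors into 1 score per pair and condition. With 1 pooled profile per condition there is no spread between replicates, no test and no p-value. Read depth behind the scores was unknown, the 2 doses differ, and both treated profiles are set against the same DMSO profile, so values are given side by side without a comparison of the compounds. The score is that of CHiCAGO, which measures how far the reads joining a captured fragment (the bait) and another fragment exceed a model of random and distance-dependent contacts, and a pair counts as called from a score of 5 upward. Where 3 values stand together without labels, they are those of DMSO, UNC6852 and UNC1999 in this order. The assay holds no expression values, so neither the identity of the cells nor the activity of these genes could be checked.

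EMX and VAX proteins are transcription factors that bind DNA through a homeodomain. EMX1 and EMX2 act in the dorsal telencephalon, the future cerebral cortex, and EMX2 also in the urogenital tract. VAX1 patterns the ventral forebrain and the optic stalk, and VAX2 the ventral retina. In pluripotent cells such developmental genes are mostly silent and lie in CpG-rich chromatin marked by Polycomb repressive complex 2, whose methylation of histone H3 is deposited by EZH1 or EZH2 and needs EED.

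On the human genome build GRCh38, VAX1 occupies chr10:117128520-117138270 on the minus strand and EMX2 chr10:117542746-117549546 on the plus strand, with their starts 404 kb apart. EMX1 occupies chr2:72916189-72934891 and VAX2 chr2:70900576-70933446. Promoter sequences from RefSeq (GRCh38.p14) matched 2 of the 4 genes, VAX1 (chr10:117138221-117138520, minus strand) and EMX2 (chr10:117542496-117542795, plus strand). They are shown 5′ to 3′ to place the cutting sites beside the fragments that the assay lists at each gene start. Capitals mark GATC, the site cut by DpnII, and TAATTA, a core motif bound by many homeodomains. Both motifs read the same on either strand and do not overlap each other.
VAX1: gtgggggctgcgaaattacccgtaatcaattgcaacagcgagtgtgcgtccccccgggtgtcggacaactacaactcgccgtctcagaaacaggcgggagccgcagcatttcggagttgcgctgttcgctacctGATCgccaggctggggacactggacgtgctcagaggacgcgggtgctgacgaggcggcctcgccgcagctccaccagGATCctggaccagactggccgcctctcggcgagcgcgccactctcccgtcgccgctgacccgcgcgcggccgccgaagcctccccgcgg
EMX2: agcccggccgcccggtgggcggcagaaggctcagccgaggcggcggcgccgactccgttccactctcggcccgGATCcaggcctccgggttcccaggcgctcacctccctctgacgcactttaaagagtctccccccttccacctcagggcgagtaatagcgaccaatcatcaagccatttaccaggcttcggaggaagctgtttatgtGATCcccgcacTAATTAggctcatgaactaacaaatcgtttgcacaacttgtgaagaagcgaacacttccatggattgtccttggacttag
The VAX1 window held 37 CpG and 68% G and C, and 88.7% of all promoters in the table had fewer CpG. The EMX2 window held 21 CpG and 58% G and C, and 60.5% of promoters had fewer CpG. The upstream GATC of VAX1, at position 117138383 (-116 from the gene start), opens the captured fragment chr10:117138383-117138567. Both GATC of EMX2 lie inside the uncaptured fragment chr10:117538491-117543051, which covers the EMX2 start but joins several DpnII fragments. TAATTA occurs 1 time in the EMX2 window, at -30 from the start, and 0 times in that of VAX1. Of the 35116 promoters of this length, 41.7% held GATC and 4.84% held TAATTA.

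The fragments at the gene ends were of unequal kind. VAX1 had 3 neighbouring captured fragments before its start (185, 620 and 890 bp, up to position 117140077), and EMX2 had 2, a short one of 231 bp within the gene and one of 826 bp just past its 3′ end (chr10:117549574-117550399). EMX1 had 1, over its start (chr2:72915227-72916313), and VAX2 had 0. The fragments nearest inside the 1000 bp limit were the 890 bp one of VAX1, at 918 bp with 37 pairs (16, 14 and 14 calls), and the 231 bp one of EMX2, at 864 bp with 1 pair (0, 1 and 0). The nearest outside it, each captured, were 1128 bp from EMX1 with 1 pair (1, 0 and 0 calls), 1437 bp from EMX2 with 5 pairs (3, 2 and 0), 1476 bp from VAX1 with 10 pairs (4, 2 and 4) and 1518 bp from VAX2 with 3 pairs (3, 0 and 0). Over all listed pairs, within and between chromosomes, captured fragments had a median length of 629 bp and uncaptured other ends 5266 bp. A contact with an uncaptured other end is thus placed less finely than one between 2 captured fragments, and 14 of the 90 pairs joined 2 captured fragments.

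Contacts of the EMX and VAX genes were called at about the rate of the whole data set. Calls among the 90 pairs numbered 41, 34 and 40, while 42.4%, 46.1% and 42.3% of all cis pairs were called. Most stood in 1 profile: 69 were seen above 5 in 1 profile, 17 in 2 and 4 in all 3, against 77.5%, 14.1% and 8.33% of all cis pairs. The 4 in all 3 were 2 contacts of VAX1 with the gene body of HSPA12A, 1 of EMX2 with the stretch upstream of VAX1, and 1 of EMX1 with a bait 239 kb away. Without the 890 bp VAX1 fragment, which alone took part in 37 of the 90 pairs, the other 53 pairs gave 25, 20 and 26 calls.

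Of the 41 contacts called in DMSO, 6 were also called in UNC6852 (14.6%, exact 95% interval 5.57 to 29.2, for counting error only) and 12 in UNC1999 (29.3%, 16.1 to 45.5). Over all cis contacts of DMSO the shares were 31.4% and 29.3%. By gene, the counts in UNC6852 were 1 of 5 for EMX1 (interval 0.51 to 71.6%), 1 of 9 for EMX2 (0.28 to 48.2%) and 4 of 28 for VAX1 (4.03 to 32.7%). Each of these intervals includes 31.4%, so a low share is not shown for any single gene. The intervals treat pairs as independent, although many share a bait. In UNC1999 the counts were 2 of 5, 5 of 9 and 6 of 28. Such shares also varied with distance. Under 2 Mb, 6 of 31 DMSO contacts were called again in UNC6852 (19.4%, 7.45 to 37.5) and 12 of 31 in UNC1999 (38.7%, 21.85 to 57.8). Over all cis contacts under 2 Mb the shares were 32.6% and 30.4%. Without the 890 bp VAX1 fragment, 5 of 25 and 9 of 25 were called again. Among the 57 pairs of 100 to 500 kb, 25, 25 and 32 were called (44%, 47.3% and 43.7% of all cis pairs of that range). Of these 57, 36 were called in 1 profile (74.5% of all in that range) and 4 in all 3 (9.42%). Among them, 6 of 25 and 12 of 25 DMSO contacts were called again, or 24.0% (9.36 to 45.1) and 48.0% (27.8 to 68.7), beside 34.3% and 32% of all cis contacts of that range.

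VAX1 and EMX2 reached far, EMX1 less so. Pairs under 250 kb made up 5 of 90 (5.56%), against 38.1% of all cis pairs, while 61.1% spanned 250 to 500 kb, against 34.7%, and 24.4% spanned over 2 Mb, against 7.38%. Of the 5 short pairs, 3 belonged to EMX1 (41.6, 42.2 and 239 kb), out of its 7, 1 to EMX2 (137 kb) and 1 to VAX1 (24.4 kb). Of the 22 pairs over 2 Mb, 21 came from the 890 bp VAX1 fragment and 1 from EMX1, so without that fragment 1 of 53 pairs spanned over 2 Mb.

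EMX2 and VAX1 met each other in 5 pairs, 402 to 422 kb apart, with 1, 4 and 2 calls and 0 pairs called in all 3 profiles. Of all cis pairs of 100 to 500 kb, 44%, 47.3% and 43.7% were called, and 9.42% in all 3. From the VAX1 side there were 3. The 185 bp VAX1 bait that opens at the promoter's GATC site met the fragment holding the EMX2 start with a score of 0.771 (DMSO), 7.42 (UNC6852) and 0.952 (UNC1999). The next bait, of 620 bp, met the captured fragment past the 3′ end of EMX2 with 0.965, 5.76 and 0.793. In both pairs only the UNC6852 profile passed 5, so they entered the data only through that score and its place above DMSO was fixed by the entry rule. The 890 bp bait met the fragment over the 3′ end of EMX2 (chr10:117546941-117549573) with 7.34, 4.19 and 5.12. This pair ran the other way, with the highest value in DMSO and the lowest in UNC6852.

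From the EMX2 side there were 2 such pairs. The 231 bp bait within EMX2 met the captured 890 bp fragment upstream of VAX1 with 0, 5.61 and 0. The 826 bp bait past the 3′ end of EMX2 met the fragment at the 3′ end of VAX1 (chr10:117126961-117129995), which also lies within 1000 bp of an end of SHTN1, a gene of neuronal polarity, with 3.47, 6.21 and 5.72. Both were higher in UNC6852 than in DMSO, and the second was also called in UNC1999. Both were below 5 in DMSO and so entered the data only through a treated score. For the first, called in UNC6852 alone, the place of UNC6852 above DMSO was fixed by the entry rule. For the second, the rule fixed that at least 1 treated score lay above DMSO. The 2 pairs that joined captured fragments could have been listed from either bait, and neither was listed from both. Such listing from both sides held for 2 of the 14 captured pairs of these genes (1 contact) and for 888 of 4340 (20.5%) of all cis pairs between captured fragments.

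**Figure D1:**
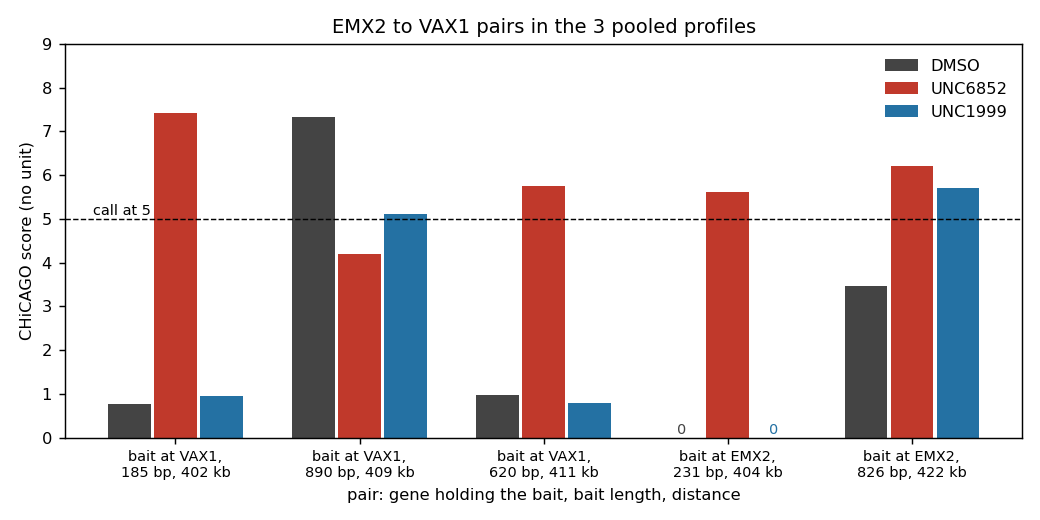
CHiCAGO score (vertical axis, no unit) of the 5 EMX2 to VAX1 pairs, as 1 bar per pooled profile, with the gene that holds the bait, the bait length in bp and the distance in kb below each pair. The UNC6852 bar is above the call score of 5 (dashed line) in 4 pairs, and the DMSO bar in 1.

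With the gene bodies widened by 25 kb on each side, a window chosen after the scores had been seen, 41 pairs joined the 2 loci. Their calls numbered 15, 16 and 22, and 1 pair was called in all 3. Over all cis pairs of 100 to 500 kb, 44%, 47.3% and 43.7% were called, and 9.42% in all 3. From VAX1-side baits there were 22 pairs with 7, 10 and 13 calls, and from EMX2-side baits 19 pairs with 8, 6 and 9. With gene ends widened to 5000 bp instead, 17 pairs had 4, 8 and 10 calls. UNC6852 thus had 3, 4 and 1 more calls than DMSO in the 5, 17 and 41 pairs, and UNC1999 also had more than DMSO in each. Both wider sets include the 5 pairs, so these are not separate counts. In 4 of the 41 pairs a bait in the body of EMX2 or its antisense gene EMX2OS met the 620 bp or the 890 bp fragment at the VAX1 start. These baits lay more than 1000 bp from the EMX2 ends, and the 4 pairs had 0, 1 and 3 calls. The bait chr10:117545693-117546940 met the 890 bp fragment with 1.24, 0.895 and 5.28 and the 620 bp fragment with 2.94, 2.85 and 5.02. Another 2 baits gave 0, 0 and 5.46 at the 620 bp fragment and 1.66, 6.43 and 0 at the 890 bp fragment. The DMSO score was below 5 in these 4, while 2 baits on the EMX2 side met captured fragments farther upstream of VAX1, in the MIR3663HG region, above 5 in DMSO alone (8.53, 2.88 and 1.39, and 5.06, 1.66 and 0).

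In another 3 pairs a bait in the body of VAX1 met an EMX2 end, and each was called in a different profile. The captured fragment past the EMX2 3′ end scored 10.4, 0 and 3.04, the largest fall of any EMX2 pair in UNC6852 (-3.03 on the asinh scale, a log-like scale that keeps scores of 0). The fragment over the 3′ end scored 0, 5.52 and 0, and the fragment with the start 0, 2.96 and 8.66. The last was the largest rise of an EMX2 pair in UNC1999 (2.86 on the asinh scale).

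Between the 2 genes, with 25 kb beside each left out, lies a stretch of 354 kb with KCNK18, a potassium channel gene, SLC18A2, which encodes the vesicular monoamine transporter, and PDZD8. The data hold 34 fragments wholly inside this stretch, 11 of them captured baits, with 123 cis pairs. VAX1 had 0 pairs there and EMX2 had 2, one with chr10:117168719-117173802 at the end of the lncRNA gene MIR3663HG (4.11, 5.59 and 3.49) and one with the bait chr10:117216480-117217767 (2.16, 5.23 and 0). Under the 1000 bp rule VAX1 also had 0 pairs with the body of its other neighbour, SHTN1. Baits outside that limit did meet fragments in the SHTN1 body. Examples are baits in the VAX1 body, with 5.37, 2.13 and 1.88 and with 5.42, 1.34 and 1.42, and one upstream, with 0.663, 0 and 5.79.

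Besides the EMX2 locus, the main partner region of VAX1 was HSPA12A, a gene of the HSP70 family on its other side, beyond SHTN1. Of the 62 VAX1 pairs, 24 joined a VAX1 bait to the HSPA12A body, over 288 to 466 kb, with 12, 10 and 14 calls. Of the 12 DMSO calls, 3 were called again in UNC6852 and 5 in UNC1999. Among all cis pairs of 100 to 500 kb, 44%, 47.3% and 43.7% were called. There, 34.3% of DMSO calls were called again in UNC6852 and 32% in UNC1999. The 24 pairs had a mean asinh score of 2.01, 1.98 and 2.03, so the means of the region lay within 0.03 of DMSO.

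Neighbouring VAX1 baits met the same HSPA12A fragments. The fragment chr10:116804566-116809938 was met by all 3 baits. The 620 bp bait scored 6.64, 10.5 and 10.7, the VAX1 pair with the highest mean over the profiles. The 890 bp bait scored 0.126, 11.4 and 6.25, and the 185 bp bait 2.01, 5.27 and 0.927. All 3 baits were thus called there in UNC6852, 1 in DMSO and 2 in UNC1999.

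The adjoining fragment chr10:116798738-116804565 was also met by all 3 baits, and all 3 passed 5 in DMSO. The 890 bp bait scored 6.12, 8.05 and 10.5. The 620 bp bait scored 6.85, 3.81 and 9.38, and the 185 bp bait 5.44, 8.66 and 0. Adjoining baits therefore gave a different order of the profiles at the same other end, in these pooled scores.

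Of the other HSPA12A fragments met by 2 baits, one gave the same order from both: at chr10:116809939-116814972 the 620 bp bait scored 1.71, 4.32 and 5.27 and the 890 bp bait 2.12, 4.36 and 5.28. In the other 3 the order differed between the baits, as at the 2 given next. At chr10:116838146-116843971 the 620 bp bait scored 5.67, 4.56 and 12.3 and the 185 bp bait 6.27, 0.796 and 0.919. At chr10:116793673-116798737 the 620 bp bait scored 4.88, 6.12 and 7.87 and the 185 bp bait 8.52, 2.26 and 4.07. In both the 185 bp bait was highest in DMSO and the 620 bp bait in UNC1999.

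Protein-coding gene ends among the VAX1 partners on this side were few. The fragment with ends of HSPA12A and ENO4, an enolase family gene, scored 0.677, 1.82 and 6.54 from the 890 bp bait. The fragment next to it, within 1000 bp of the ENO4 end, scored 8.14, 3.32 and 3.18 from that bait and 3.24, 6.45 and 2.28 from the 185 bp bait. At the far end of HSPA12A, beside SPMIP5, which encodes a protein of sperm microtubules, the score from the 890 bp bait was 1.71, 5.52 and 7.89. A bait at that same SPMIP5 and HSPA12A end met the 890 bp VAX1 fragment with 5.42, 0.896 and 0. PNLIPRP1, a lipase-related gene 527 kb away, scored 5.28, 0.547 and 1.48. Each of these pairs was called in 1 or 2 profiles. Over its pairs, the ENO4 end had 1, 1 and 1 calls and the SPMIP5 and HSPA12A end was likewise called in every profile, from different pairs.

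The other VAX1 pairs under 2 Mb met no end of a protein-coding gene. The 620 bp bait met MIR3663HG, 24.4 kb upstream, with 5.06, 3.79 and 3.69, and the body of ENO4 with 5.33, 6.96 and 0.965. It met 2 fragments beyond EMX2, one with 2.81, 1.97 and 6.80 and one with 5.11, 0.569 and 0. It also met the body of SPMIP5 with 0.592, 3.30 and 5.06, and the 890 bp bait met a fragment at 558 kb with 0, 5.20 and 0.10. Of these 6 pairs, 1 was called in 2 profiles and 5 in 1.

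**Figure D2:**
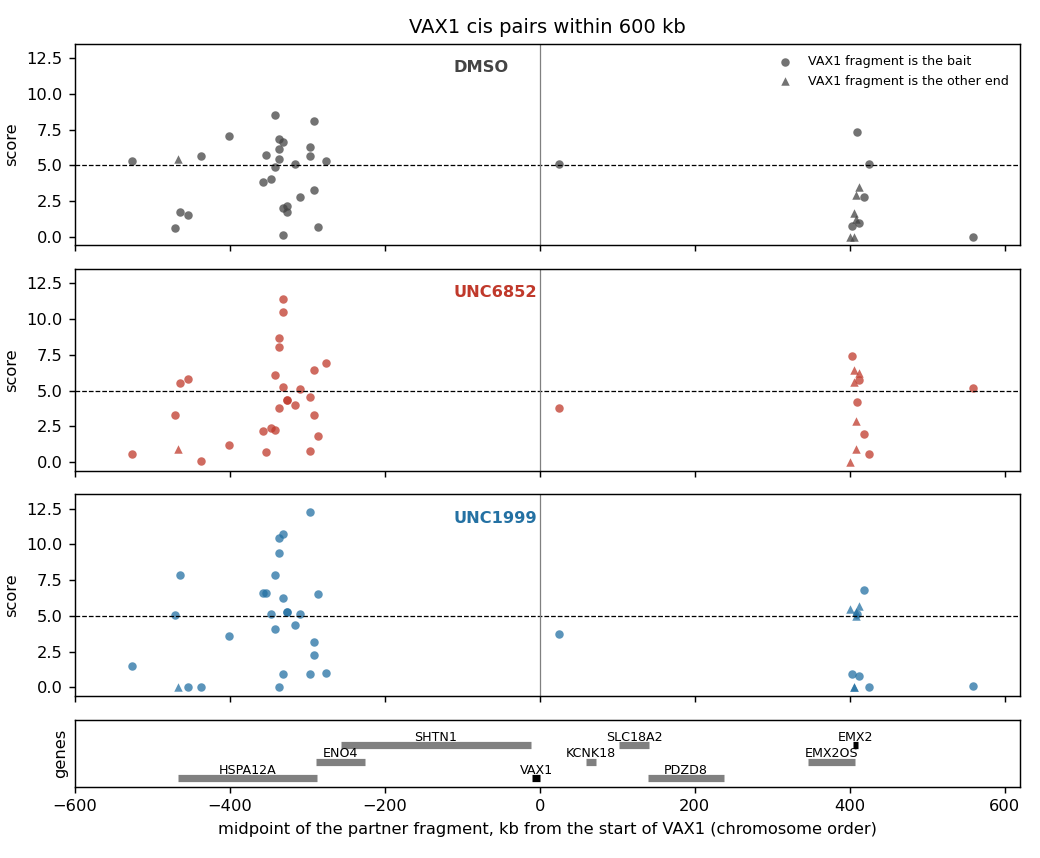
Scores of the 41 VAX1 cis pairs under 2 Mb (vertical axis, no unit) against the position of the partner fragment in kb from the VAX1 start (horizontal axis), with 1 panel for each pooled profile, circles where VAX1 holds the bait, triangles where it is the other end, and gene bodies below. Partners lie over HSPA12A on the left and EMX2 on the right, with none over SHTN1, KCNK18, SLC18A2 or PDZD8.

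The far VAX1 contacts came from 1 fragment. All 21 VAX1 pairs over 2 Mb used the 890 bp fragment, with 10, 7 and 4 calls (34.6%, 39.3% and 35.9% of all cis pairs of that range were called). Each of the 21 was called in a single profile, as were 93.5% of all pairs of that range, and 0 in all 3, against 3.16%. Of the 10 DMSO calls, 0 were called again in either treated profile, against 12.6% and 12.1% of all DMSO calls over 2 Mb. Among them was HMX2, a homeobox gene of the inner ear and hypothalamus, 6011 to 6012 kb away. The VAX1 bait met the captured fragment chr10:123151385-123151882 with 8.22, 0 and 0, and the same contact read from the HMX2 bait gave 9.52, 0 and 0. A second HMX2 bait (chr10:123150623-123151284) met VAX1 with 7.65, 0 and 0. The 2 listings of 1 contact can rest on the same ligation products, so these are not 3 independent observations.

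The other 18 far pairs spanned 12448 to 95856 kb, with 7, 7 and 4 calls. The highest was a fragment in the body of SORCS3, which encodes a sorting receptor of neurons, with 0, 16.4 and 0. In UNC1999 alone, fragments at chr10:62767785-62773764 and chr10:81112521-81117710 scored 12.3 and 11.2. Also in UNC1999 alone, the captured fragment at GDF10, a growth factor gene of the BMP family, scored 9.16. LRRC20, which encodes leucine-rich repeats, was met at 2 fragments, with 5.81 at its end in DMSO alone and 6.25 in its body in UNC6852 alone. WASHC2A, of the endosomal WASH complex, scored 7.50 in UNC6852 alone. In each of these the other 2 profiles were at 0. Fragments in the bodies of NEBL, MAPK8 and CTNNA3 were called in DMSO alone (8.08, 7.05 and 6.17) and one in KCNMA1 in UNC6852 alone (5.55).

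EMX2 contacts gathered at the VAX1 locus and the MIR3663HG gene beside it, with a smaller set 701 to 746 kb away on the other side. Its 26 pairs had 9, 12 and 14 calls. The strongest joined the 826 bp bait past the EMX2 3′ end to chr10:117152156-117157218, at an end of MIR3663HG, with 12.0, 3.40 and 9.93. The same bait met chr10:117141184-117147041, upstream of VAX1, with 7.74, 6.02 and 6.08, the EMX2 contact called in all 3 profiles. Both were highest in DMSO. Inside MIR3663HG this bait scored 1.61, 5.78 and 4.78, and on the other side of EMX2, at 137 kb, 5.02, 3.98 and 2.32.

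Within MIR3663HG, 3 neighbouring baits (172 to 725 bp) met both the fragment with the EMX2 start and the one over its 3′ end, giving 6 pairs with 2, 3 and 5 calls. At the EMX2 start, the bait at chr10:117159703-117159959 scored 5.84, 3.05 and 5.07. The bait at chr10:117159960-117160131 scored 5.45, 2.41 and 6.51 there, and the one at chr10:117160216-117160940 scored 0.739, 6.09 and 7.35. The first 2 baits were called in DMSO and UNC1999, and the third in both treated profiles.

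At the 3′ end of EMX2 the same 3 baits, in that order, scored 0.349, 5.32 and 5.22, then 0.293, 4.30 and 7.88, then 1.86, 8.17 and 2.74. They lay between 0.293 and 1.86 in DMSO and between 2.74 and 8.17 in the treated profiles. Having DMSO scores under 5, these pairs entered the data only through a treated score of 5 or more, so this order is largely fixed by the entry rule, and 2 of the same baits were above 5 in DMSO at the EMX2 start. With the 826 bp EMX2 bait's own contacts, MIR3663HG accounted for 9 of the 26 EMX2 pairs, with 3, 5 and 6 calls. The fragment holding the EMX2 start was met by 10 baits in all (4, 3 and 6 calls) and the one over the 3′ end by 5 (1, 3 and 3).

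Beyond 500 kb, EMX2 had 6 pairs (701 to 746 kb) with 2, 0 and 4 calls. Baits in the lncRNA gene LINC02944 met the EMX2 start with 4.93, 2.10 and 5.21, with 1.12, 1.17 and 8.83, and with 5.16, 0 and 0.165. A bait at 731 kb scored 5.71, 1.16 and 0.970. From the 826 bp EMX2 bait, a fragment at 706 kb scored 2.46, 4.74 and 5.69, and the end of FAM204A, at 746 kb, 0, 2.25 and 5.84. The 6 pairs were each called in 1 profile, and none of them in UNC6852. Among all 30321 cis pairs of 0.5 to 2 Mb, 26255 were called in 1 profile, with 11215, 12942 and 11481 calls. EMX2 had 0 pairs over 2 Mb, where VAX1 had 21.

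**Figure D3:**
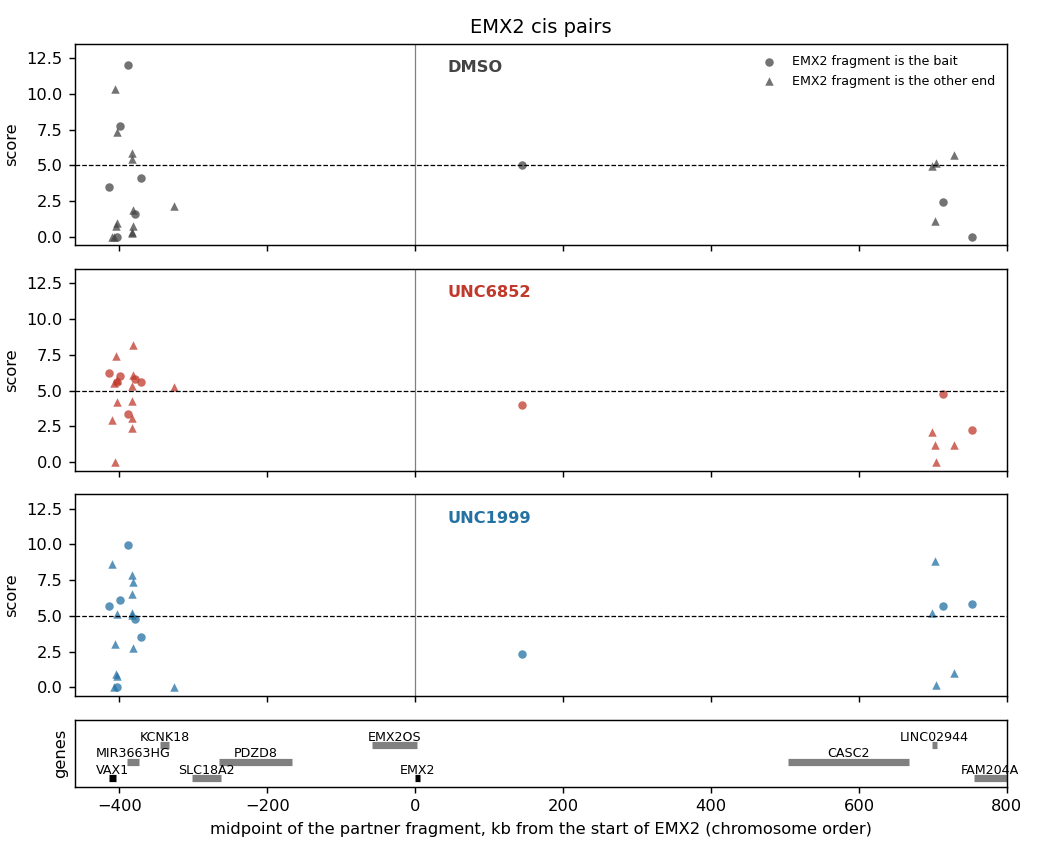
Scores of the 26 EMX2 cis pairs (vertical axis, no unit) against the position of the partner fragment in kb from the EMX2 start (horizontal axis), with 1 panel per pooled profile, circles where EMX2 holds the bait, triangles where it is the other end, and gene bodies below. Most partners lie at VAX1 and MIR3663HG, near 400 kb to the left, and 6 lie 701 to 746 kb to the right.

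EMX1 was the other end in all of its 7 pairs, 2 of them at the captured fragment over its start and 5 at the fragment over its 3′ end (chr2:72933336-72938655). Calls numbered 5, 2 and 3. The contact called in all 3 profiles joined the 3′ end to a bait 239 kb away (chr2:73174820-73175287), with 5.64, 5.59 and 7.56. Next to it, 2 baits met the captured fragment at the EMX1 start, one with 5.02, 3.19 and 3.57 and the other with 0, 2.55 and 5.04. NOTO, a homeobox gene of the notochord 266 kb away, met the 3′ end with 5.03, 1.09 and 5.78. The baits upstream of EMX1, at 42.2 and 41.6 kb, scored 7.28, 4.11 and 4.54 and then 5.58, 1.66 and 4.82. All 5 contacts called in DMSO, and so picked for a high DMSO score, were lower in UNC6852, and 3 of them were also lower in UNC1999. The last pair, 52271 kb away, scored 0, 6.94 and 0.

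VAX2 had no fragment of a cis pair within 1000 bp of either end. With the window widened to 5000 bp it had 19 pairs with 8, 10 and 3 calls and a mean asinh score of 1.16, 1.73 and 0.60. The widened window lies outside the rule and is given for orientation.

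Scores were averaged per gene as the mean asinh score over its pairs. EMX2 had 1.52, 1.95 and 1.84, or 0.43 and 0.32 above DMSO (SE over pairs 0.29 and 0.26). VAX1 had 1.60, 1.56 and 1.34, or -0.04 and -0.26 against DMSO (SE over pairs 0.22 and 0.21). Both of these means include the 5 EMX2 to VAX1 pairs, by whose scores the genes were chosen. Those 5 pairs had mean differences of 1.21 and 0.028. EMX1 had 1.74, 1.85 and 2.00, or 0.11 and 0.26 above DMSO (SE over pairs 0.56 and 0.36). Pairs of a gene share baits and libraries and are not replicates, so these errors describe the scatter between pairs. For each gene both differences were less than 2 such errors. The EMX1 difference in UNC6852 turned to -0.31 over its 6 pairs under 2 Mb, so its sign rests on the 1 pair beyond that distance. It turned to -0.022 with quantile-normalized scores, and that of VAX1 to 0.0031 without its 890 bp bait. For the 4 EMX2 pairs whose mean score was 5 or more the differences were -0.37 and -0.074.

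Over the 4978 protein-coding genes with at least 3 pairs, the median difference was 0.069 for UNC6852 and -0.0075 for UNC1999, with 56.4% and 49.2% of genes higher than in DMSO. EMX2 stood above 78.5% and 75.5% of these genes in the 2 differences, VAX1 above 40.2% and 28.9%, and EMX1 above 54.0% and 71.9%. EMX2 was also at a low place in DMSO, above 34.2% of genes, and at 61.3% and 58.4% after treatment. The places of EMX2 and VAX1 rest in part on the EMX2 to VAX1 pairs used for the choice. They were not computed without those pairs, so they are a description only. None of the 3 stood at an extreme of the range.

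**Figure D4:**
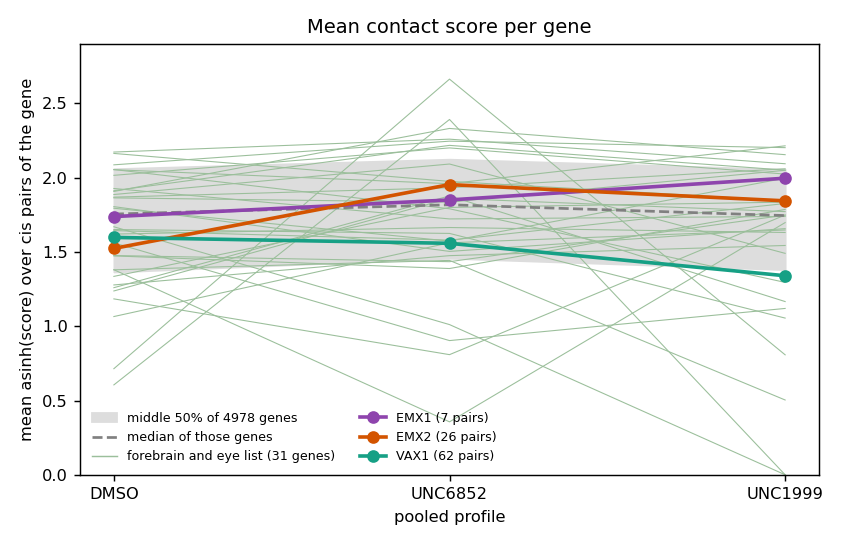
Mean asinh score over the cis pairs of a gene (vertical axis) in each pooled profile (horizontal axis) for EMX1, EMX2 and VAX1, the 31 genes of the forebrain and eye list with at least 3 pairs (thin lines), and the middle 50% and median of all 4978 genes (band and dashed line). EMX2 goes from 1.52 in DMSO to 1.95 and 1.84, and VAX1 from 1.60 to 1.56 and 1.34.

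Single pairs moved in both directions. By a difference of 1 or more on the asinh scale, 24 of the 90 pairs were lower and 26 higher in UNC6852 than in DMSO, against 17.1% and 20.2% of all cis pairs. In UNC1999, 23 were lower and 19 higher, against 18.7% and 18.6%. For EMX2, 4 pairs were lower and 11 higher in UNC6852, and 4 and 7 in UNC1999. For VAX1, 18 were lower and 16 higher in UNC6852, and 19 and 11 in UNC1999. The 5 EMX2 to VAX1 pairs, counted for both genes, gave 0 lower and 3 higher in UNC6852, and 0 and 0 in UNC1999. Without the 890 bp VAX1 bait, the other 53 pairs held 11 lower and 14 higher in UNC6852, and 10 and 11 in UNC1999. The largest falls of VAX1 were the contact with HMX2 in its 2 listings, by asinh differences of -2.95 and -2.80 in both treated profiles. The largest rises were those with SORCS3 (3.49) and with the HSPA12A fragment that went from 0.126 to 11.4 in UNC6852, and 3.20 and 3.11 with the 2 distant fragments in UNC1999. All of these VAX1 values come from the 890 bp fragment.

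A list of 40 regulators of forebrain and eye development gave the wider setting. Of these, 31 had at least 3 cis pairs, and UNC6852 was higher than DMSO in 16 and lower in 15 (median 0.04), while UNC1999 was higher in 19 and lower in 12 (median 0.12), beside 56.4% and 49.2% higher and medians of 0.069 and -0.0075 over all 4978 genes. The list had 241, 272 and 246 calls, and those 4978 genes 21738, 23198 and 21548, which were also highest in UNC6852. The highest UNC6852 differences were those of POU3F3, a neural POU factor, with 1.95 (0.09 in UNC1999) over 6 pairs, and RAX, a regulator of the eye field, with 1.79 (-0.61) over 4 pairs. The lowest were those of LHX5, a LIM homeobox gene of the forebrain, with -1.02 (0.32) over 9 pairs, and DLX1, of ventral forebrain interneurons, with -0.66 (-1.67) over 3 pairs. The EMX2 difference in UNC6852, 0.43, lay between those extremes.

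The genes most like each member in their 3 mean asinh scores were sought among 3262 genes with at least 5 pairs, by Euclidean distance. Nearest to EMX2 were FEZ2 (0.069), ERICH5 (0.081) and WNT10B (0.088). Nearest to VAX1 were MARCKS (0.066), KCNJ12 (0.073) and SNX33 (0.084), and nearest to EMX1 were FOXA2 (0.060), AHSP (0.066) and SLC26A2 (0.066). Likeness over 3 values of 1 pooled profile each describes the scores and no more.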

How the data were processed

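The contacts were measured by poised-enhancer capture Hi-C after digestion with DpnII, in 3 conditions of 15 libraries each. The deposited values are CHiCAGO scores, 1 column per condition pooled over its libraries by the authors, per the labels. The submitters' processing notes name the build GRCh38, while aligner and caller settings are not given in the sources used here. Single libraries were not analysed here. All 434524 listed pairs reach 5 in at least 1 column, and read depth is unknown.

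From these scores, pairs were assigned to genes by RefSeq coordinates (either gene end within 1000 bp), distances taken between fragment midpoints, and differences computed between asinh-transformed scores. The step was also run on simulated data. That run could check the calculation only. It gives no support to the differences reported here, which also depend on the floor of the scores and on the entry rule. The members and lists were chosen with earlier results of these data known. Named by rule were all EMX2 to VAX1 pairs, every protein-coding gene with an end within 1000 bp of a partner fragment, per member the 5 pairs with the highest mean score and the 2 largest falls and rises for each compound, the 2 lowest and 2 highest listed forebrain genes, and the 3 most like genes. Other single pairs were named after their scores were seen. Alternatives covered score thresholds, gene ends, distance, merging of fragments, normalization, baits against other ends, and omission of 1 VAX1 bait. Python 3.11.15, numpy 2.4.6, pandas 2.3.3, scipy 1.17.1 and matplotlib 3.10.9 were used.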

Additional observations from a re-analysis of the deposited data

Results flagged for a closer look

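The comparisons above use cis pairs. Between chromosomes, the captured fragments at the ends of these genes had 101 pairs in which they were the bait. Their calls numbered 43 in UNC6852 and 38 in UNC1999 beside 20 in DMSO, so both treated profiles held more than the control. All 101 were called in a single profile, as were 280894 of all 281836 pairs between chromosomes. Of the 101, 86 came from VAX1 fragments (16, 36 and 34 calls), and 59 of them from the 890 bp fragment alone. Over all 281836 pairs between chromosomes there were 84499, 96770 and 101879 calls. The depth of the profiles was unknown and its part in these counts was not tested.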

How the results depend on the processing

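No paired analysis was possible because each condition is 1 pooled column, and for the same reason no replicate could be left out. Of 164 values under alternatives, 92 stayed close to the reported one, 57 moved and 15 changed sign. Close meant counts within 1.5 times, shares inside the exact 95% interval of the reported share, and differences within 1 SE over pairs. Where no cause follows from the setting itself, the cause was not tested. In the order DMSO, UNC6852, UNC1999, member calls were 13, 11 and 15 at a threshold of 7, 2, 3 and 5 at 10, 10, 9 and 13 with gene ends inside the fragment (0 bp), 89, 78 and 81 within 5000 bp, and 25, 20 and 26 without the VAX1 bait with most pairs, an alternative chosen after seeing the data. EMX2 to VAX1 calls were 15, 16 and 22 within 25 kb of the gene bodies (also chosen after seeing the data), 4, 8 and 10 within 5000 bp and 0, 0 and 0 at 0 bp, where no pair was left. At a threshold of 7 they were 1, 1 and 0, at 10 they were 0 in each profile, and with quantile-normalized scores 1, 4 and 1. The share of DMSO calls kept was 0% in UNC6852 and 7.69% in UNC1999 at 7, 0% in both at 10, and 50% in UNC1999 at 0 bp. Pairs past the asinh difference, lower and higher, were 13 and 13 for UNC6852 and 15 and 12 for UNC1999 with a difference of 2, 4 and 9, then 3 and 6, at 0 bp, 55 and 58, then 62 and 49, within 5000 bp, and 11 and 14, then 10 and 11, without that bait.

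The VAX1 difference in UNC6852 turned to 0.0068 with captured pairs counted once, 0.015 at the bait only, 0.57 at 0 bp (1 pair), 0.78 over pairs whose mean score was 5 or more, 0.11 up to 2 Mb and 0.0031 without that bait, and was -0.36 at the other end only and -0.27 as a mean over baits. The VAX1 difference in UNC1999 turned to 0.49 at 0 bp and 0.66 over pairs whose mean score was 5 or more, and was -0.51 at the other end only, -0.61 as a mean over baits and -0.031 up to 2 Mb. That of EMX1 turned to -0.28 in UNC6852 and -0.088 in UNC1999 over pairs whose mean score was 5 or more, in UNC6852 also to -0.022 with quantile-normalized scores and -0.31 up to 2 Mb, and in UNC1999 to -0.11 within 5000 bp. That of EMX2 turned to -0.37 and -0.074 over the 4 such pairs, and was 0.093 and 0.10 within 5000 bp, 0.17 and 0.067 with quantile-normalized scores, and 0.12 in UNC1999 as a mean over baits. Quantile normalization moved the median of all genes to -0.14 and -0.23, and relative to that median EMX2 was at 0.31 and 0.30, VAX1 at -0.07 and -0.19 and EMX1 at 0.12 and 0.42.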

Other observations

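Around VAX2, outside the 1000 bp rule, 13 baits within 10 kb of the gene had 34 cis pairs. In the order DMSO, UNC6852, UNC1999 their calls numbered 13, 16 and 6. With other ends included, 47 pairs lay within 10 kb (17, 25 and 16 calls), of which 2 were called in all 3 profiles. Both came from the bait chr2:70871122-70872202. One, at 71.1 kb, scored 8.08, 9.89 and 8.79, and the other, at 49.8 kb, scored 5.36, 7.54 and 11.1.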
